A study of Paeonia lactiflora with 9 samples.

Results

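The unigenes described here carry the annotation of enzymes that build galactolipids or cleave acylglycerols in developing seeds of herbaceous peony (Paeonia lactiflora 'Hangshao', an ornamental and medicinal cultivar with oil-rich seeds). They were chosen by words in the enzyme definition (galactosyl, sulfoquinovosyl, acylglycerol or glycerol kinase, with wax-ester, galactosidase, ceram, sphing and phospho excluded) among the differentially expressed genes (DEGs) that the study assigned to lipid metabolism. Of 52 matches, 1 also stood in the study's list of oil synthesis unigenes and was dropped, which left 51 of the 125685 unigenes in the deposited table. Only 33 of the 51 bore the galactolipid and acylglycerol lipase definitions: 2 were 1,2-diacylglycerol 3-beta-galactosyltransferase, 3 were digalactosyldiacylglycerol synthase and 28 were acylglycerol lipase. The other 18 entered because diacylglycerol, acylglycerol or glycerol kinase was part of their enzyme name: 7 diacylglycerol kinases, 4 diacylglycerol diphosphate phosphatases, 3 phosphatidylinositol synthases, 2 acyltransferases of 2-acylglycerol, 1 glycerol kinase and 1 phosphatidylglycerophosphate synthase. No sulfoquinovosyl transferase, which makes the plastid sulfolipid, was among them.

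Seeds were sampled at 30, 60 and 90 days after flowering (DAF), with 3 libraries per stage and no treatment. The methods of the study describe seeds of a single plant and a single strain, so the SDs and standard errors given here need not cover the spread between plants. Values are FPKM (fragments per kilobase of transcript, scaled by the size of the library), which are per length and can be compared between unigenes. The contrasts have these names: 60 against 30 DAF is Group I, 90 against 60 DAF is Group II, and 90 against 30 DAF is Group III.

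Monogalactosyldiacylglycerol (MGDG) and digalactosyldiacylglycerol (DGDG) are the main lipids of the photosynthetic membranes of plastids. MGDG synthase transfers galactose onto diacylglycerol, and DGDG synthase adds a further galactose. Acylglycerol lipases hydrolyse the ester bonds of monoacylglycerols and related glycerides, and diacylglycerol is also the precursor of storage oil and, through its phosphorylated form, of membrane phospholipids.

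The study had selected these unigenes because they differed between stages of the same 9 libraries. Their stage differences are therefore given as a description. No p is printed for them, and a call only marks which members passed a fixed limit that their selection favoured. A unigene was called changed where its log2 change in FPKM + 0.5 was at least 1 in size and the limma adjusted p over all tested unigenes was at most 0.05. Of the 51 members, 44 passed the filter of 0.5 FPKM in 3 libraries and 7 did not. Among the 44, 40 were called in at least 1 group, 2 in all 3 groups and 4 in none. Near the limit, Unigene33843_All was called with a largest log2 change of 1.13 in size. CL4719.Contig1_All with 1.17, CL13725.Contig2_All with 1.12, Unigene29979_All with 0.97 and CL3462.Contig3_All with 0.94 were not called.

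Over all enzymes, 9 of the 44 tested members were called in Group I, all of them lipases, 6 higher and 3 lower. Over all 55192 tested unigenes, 8.05% were called in Group I (1.72% higher, 6.33% lower). In Group II, 28 members were called, 11 higher and 17 lower, beside 27.6% of all tested unigenes (18.2% higher, 9.41% lower). In Group III, 32 members were called, 12 higher and 20 lower, beside 30.2% of all tested unigenes (13.7% higher, 16.5% lower). Since the members had been picked as DEGs of these contrasts, nothing is read from these shares. Under median-of-ratios scaling, 9 members were called higher and 2 lower in Group I, 8 and 25 in Group II, and 12 and 21 in Group III, beside 2.78% and 3.55%, 7.5% and 14.1%, and 10.2% and 17.9% of all tested unigenes.

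Libraries of a stage were most alike at 30 DAF (Pearson's r across unigenes 0.939 to 0.949), followed by 60 DAF (0.927 to 0.936) and 90 DAF (0.814 to 0.856). Depth, as estimated from the steps between low FPKM values, ran from 0.871 to 1.07 times that of 30 DAF replicate 1. The study listed nearly equal numbers of clean reads for all libraries. The study's 6 oleosin and 4 caleosin unigenes, whose products coat seed oil bodies, were detected at every stage. Of these 10, 3 were called higher in Group I, 1 higher and 1 lower in Group II, and 5 higher in Group III. Over all tested unigenes, 8.05%, 27.6% and 30.2% were called. The oleosin CL8973.Contig3_All had 145 ± 20.0 FPKM at 30 DAF, 1759 ± 208 at 60 DAF, then 3093 ± 467 at 90 DAF (SD, n = 3). The oleosin Unigene26649_All was highest at 60 DAF, with means of 250, 1039 and 676 FPKM. CL8973.Contig1_All ran from 3.42 to 4367 FPKM between libraries of 60 DAF. The median log2 change of all tested unigenes in Groups I, II and III was -0.31, 0.36 and 0.06. Median-of-ratios scaling brought it to -0.03, -0.04 and -0.07, so the choice of scaling shifts all members together.

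**Figure D1:**
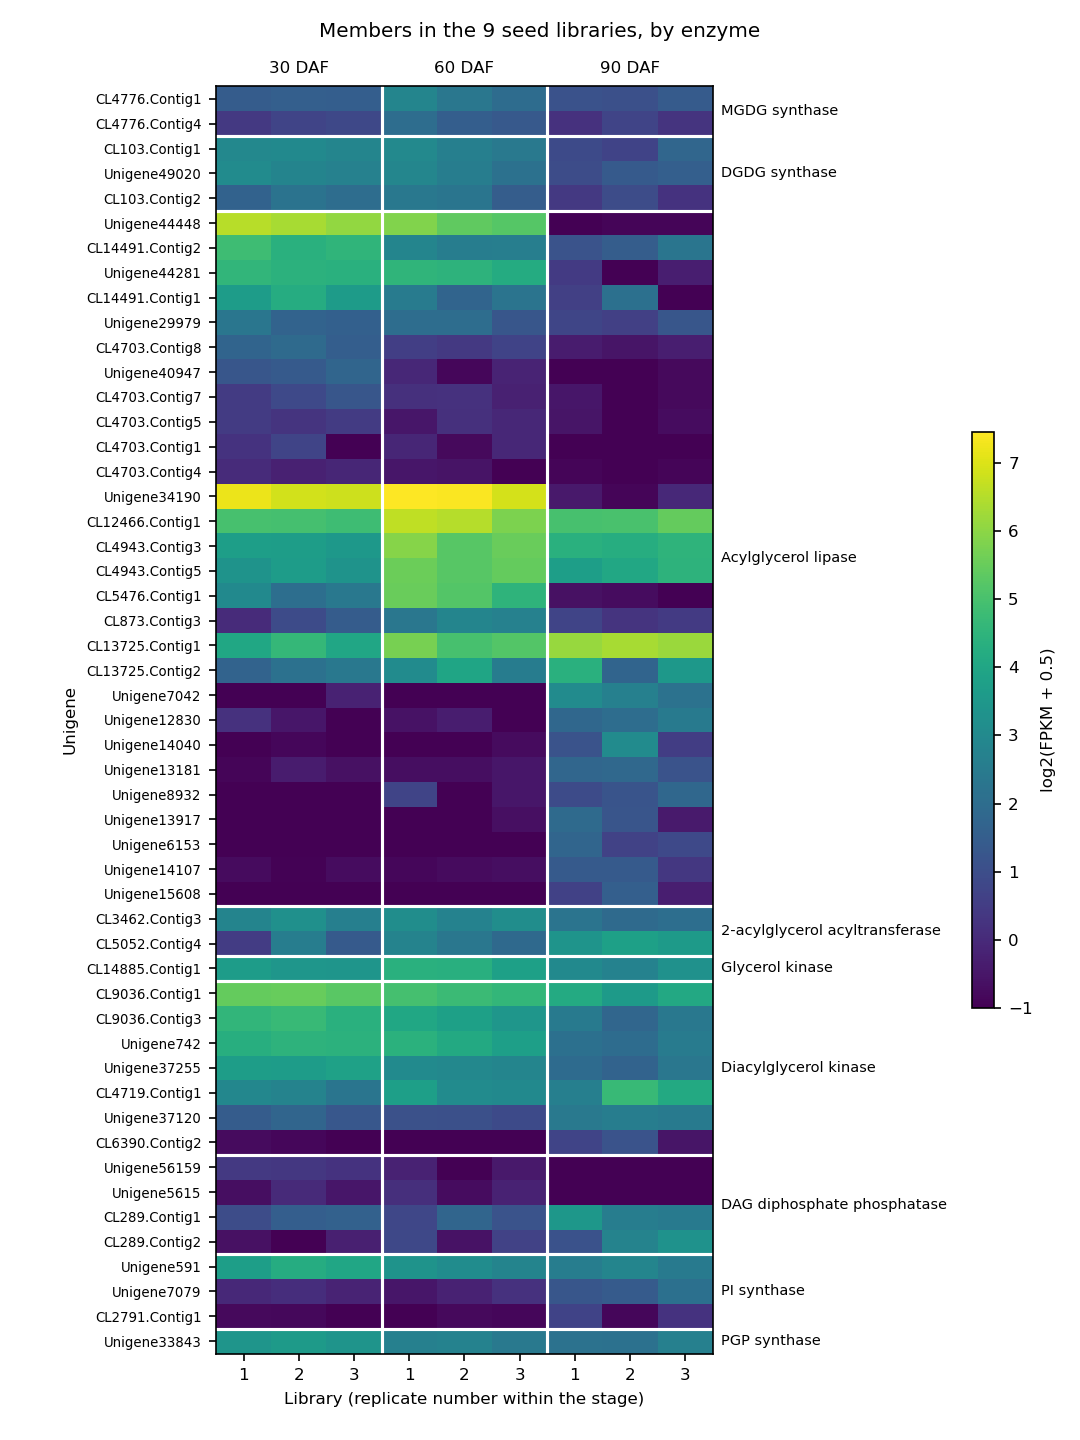
Heat map of log2(FPKM + 0.5) for the 51 members (lines, grouped by enzyme) in the 9 libraries (columns, 3 per stage). The lipase lines of Unigene34190_All and Unigene44448_All, the brightest at 30 DAF, are dark at 90 DAF, and 9 lipases are brighter at 90 DAF than before, at a low level.

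The galactolipid synthases fell late. All 5 were called lower in Group II, and the 3 DGDG synthase unigenes were also called lower in Group III. Over all tested unigenes, 9.41% and 16.5% were called lower in these groups. Both MGDG synthase contigs had their highest mean at 60 DAF, while 2 of the 3 DGDG synthases had theirs at 30 DAF. Summed over the 2 contigs, MGDG synthase stood at 3.45 ± 0.35 FPKM at 30 DAF, 7.58 ± 2.46 at 60 DAF, then 2.66 ± 0.28 at 90 DAF (SD, n = 3). Summed DGDG synthase stood at 17.45 ± 1.005, 15.2 ± 3.91 and 4.79 ± 1.24 FPKM at 30, 60 and 90 DAF. Under median-of-ratios scaling the order of its first stages turned, with sums of 16.0, 18.5 and 3.78, and all 3 DGDG synthases had their highest mean at 60 DAF. In bulk seeds, fewer cells of a type and less RNA per cell cannot be told apart.

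CL4776.Contig1_All, the more abundant MGDG synthase contig, had 2.24, 2.46 and 2.39 FPKM at 30 DAF, 6.75, 4.61 and 3.43 at 60 DAF, then 1.71, 1.57 and 2.18 at 90 DAF. Every 60 DAF library lay above all libraries of the other stages. Its log2 change was 0.88 in Group I (SE 0.25), below the limit, and -1.19 in Group II (SE 0.25), which was called. CL4776.Contig4_All had 0.81, 1.17 and 1.29 FPKM at 30 DAF, 3.54, 2.37 and 2.05 at 60 DAF, then 0.64, 1.17 and 0.72 at 90 DAF. Its libraries at 60 DAF were again apart from the others, whereas those at 30 and 90 DAF overlapped. The log2 change was 0.97 (SE 0.27) in Group I and -1.22 (SE 0.27) in Group II. In Group I neither contig was called, but both were called higher under median-of-ratios scaling (1.25 and 1.30) and quantile normalization (1.23 and 1.30), and so was the sum over all contigs of the cluster (1.02). CL4776.Contig1_All was also called without 60 DAF replicate 3 (1.09). Without 60 DAF replicate 1, the Group II change of CL4776.Contig1_All was -0.96 and no longer called.

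CL103.Contig1_All, a DGDG synthase, had 7.15, 7.62 and 6.72 FPKM at 30 DAF, 7.46, 5.71 and 4.89 at 60 DAF, then 1.36, 1.11 and 2.96 at 90 DAF. CL103.Contig2_All, from the same assembly cluster, had 2.67, 4.20 and 3.57 FPKM at 30 DAF, 4.74, 4.38 and 2.31 at 60 DAF, then 0.81, 1.44 and 0.68 at 90 DAF. In both, every 90 DAF library was below every earlier one, and the libraries of 30 and 60 DAF overlapped. The log2 change in Group II was -1.56 (SE 0.30) for CL103.Contig1_All and -1.53 (SE 0.32) for CL103.Contig2_All. In Group III it was -1.81 (SE 0.30) for CL103.Contig1_All and -1.45 (SE 0.32) for CL103.Contig2_All.

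Unigene49020_All, a DGDG synthase outside that cluster, had 7.86, 6.50 and 6.06 FPKM at 30 DAF, 6.78, 5.42 and 3.98 at 60 DAF, then 1.44, 2.14 and 2.44 at 90 DAF. It showed the same order, with 30 and 60 DAF overlapping and 90 DAF below. Its log2 change was -1.23 in Group II and -1.56 in Group III (SE 0.25 each). In Group I the log2 changes of CL103.Contig1_All, CL103.Contig2_All and Unigene49020_All were -0.25, 0.08 and -0.33, inside the limit, and under median-of-ratios scaling those of CL103.Contig1_All and Unigene49020_All turned to 0.14 and 0.05. Relative to the median of all tested unigenes, the 5 synthases lay between -1.92 and -1.55 in Group II.

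**Figure D2:**
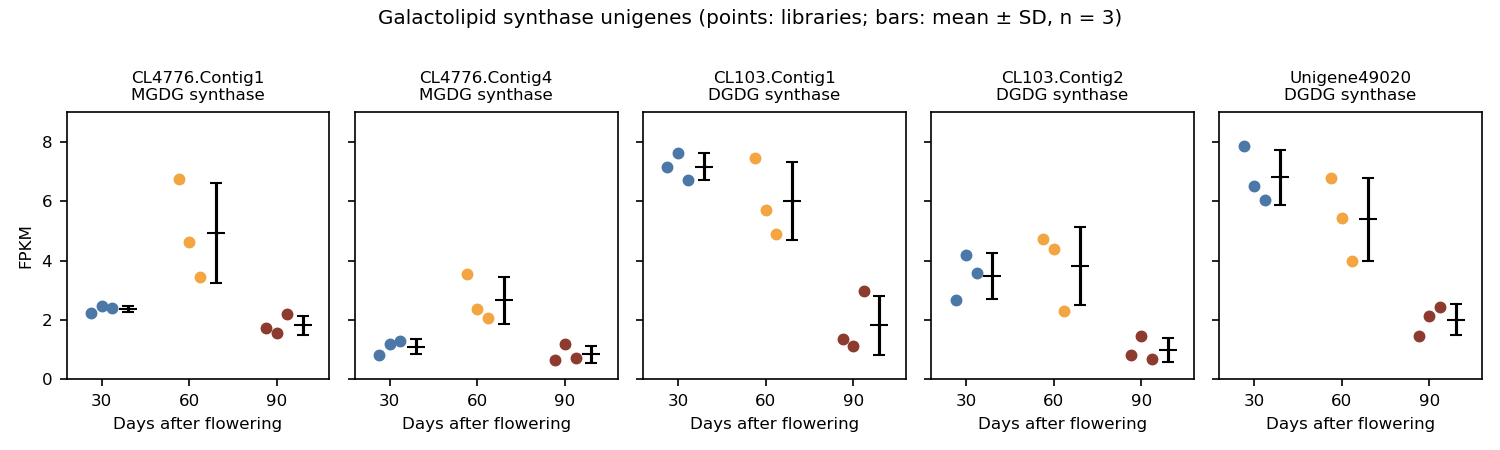
FPKM of the 5 galactolipid synthase unigenes against days after flowering (points are libraries, bars the mean ± SD of 3 libraries). The MGDG synthase contigs are highest at 60 DAF, at 4.93 and 2.65 FPKM on average, and the 3 DGDG synthases are lowest at 90 DAF, at 1.81, 0.98 and 2.01 FPKM.

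FAD7 and FAD8, the plastid desaturases that act on the acyl chains of galactolipids, had 2 unigenes each in the study's oil synthesis list. All 4 were called lower in Groups II and III, beside 9.41% and 16.5% of all tested unigenes. Unigene34203_All (FAD8) was listed at 0 in the 3 libraries of 90 DAF, against 22.4, 38.4 and 33.9 FPKM at 60 DAF. CL13349.Contig2_All (FAD7) had 0.46, 0.32 and 0.41 FPKM at 90 DAF, against 9.30, 9.31 and 8.51 at 60 DAF. These lists too were drawn by the study from the same libraries.

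FAD7 and FAD8 belong to a list of 32 neighbouring glycerolipid unigenes, which also covers acyltransferases (GPAT, LPAAT, DGAT, PDAT), PDCT, PLA2, phosphatidate phosphatases (PAP) and NAD-dependent glycerol-3-phosphate dehydrogenases (GPDH). Of the 30 that were tested, 4 were called in Group I (1 higher, 3 lower), 20 in Group II (8 higher, 12 lower) and 23 in Group III (8 higher, 15 lower). Over all tested unigenes, 8.05%, 27.6% and 30.2% were called. Since the study had picked the neighbours as DEGs too, nothing is read from these counts. Under median-of-ratios scaling the split turned to 3 higher and 1 lower in Group I, and was 1 and 14 in Group II and 8 and 17 in Group III. The shares of all tested unigenes were then 2.78% and 3.55%, 7.5% and 14.1%, and 10.2% and 17.9%. All 4 tested unigenes of PAP, which makes diacylglycerol, were called higher in Group III, beside 13.7% of all tested unigenes. Among them, CL3787.Contig2_All had 21.1, 22.7 and 21.8 FPKM at 90 DAF, against 3.38, 4.45 and 3.24 at 30 DAF. All 4 unigenes of GPDH, which supplies the glycerol backbone, were called lower in Group II, beside 9.41% of all tested unigenes.

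The acylglycerol lipases that held most of the FPKM differed between stages. Their summed FPKM was 358 ± 38.9 at 30 DAF, 499 ± 95.0 at 60 DAF, then 190.2 ± 4.13 at 90 DAF (SD, n = 3). Of the 28, 11 had their highest mean at 30 DAF, 6 at 60 DAF, and the remaining 11 at 90 DAF. Under median-of-ratios scaling these counts were 9, 9 and 10. Unigene34190_All, Unigene44448_All and Unigene44281_All together made up 63.3% of the lipase FPKM at 30 DAF, 44.1% at 60 DAF, then 0.352% at 90 DAF, whereas CL13725.Contig1_All alone made up 38.8% at 90 DAF.

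The lipase unigene with the highest FPKM of all was Unigene34190_All, with 147, 115 and 111 FPKM at 30 DAF and 174, 169.6 and 118 at 60 DAF. At 90 DAF it had 0.24, 0.04 and 0.49 FPKM, so that the later libraries lay far below the earlier ones, while those of 30 and 60 DAF overlapped. The log2 change was -7.70 in Group II and -7.40 in Group III (SE 0.25 each), and 0.30 in Group I, which was not called.

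Unigene44448_All had 93.4, 81.2 and 67.2 FPKM at 30 DAF, 57.2, 41.3 and 37.0 at 60 DAF, then 0, 0.04 and 0.04 at 90 DAF. The 3 stages did not overlap, in falling order. The log2 change was -6.41 in Group II and -7.25 in Group III (SE 0.20 each). In Group I it was -0.84 (SE 0.20) and was called only without 60 DAF replicate 1, at -1.02.

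Unigene44281_All was level between the first stages, with 23.3, 21.2 and 19.9 FPKM at 30 DAF and 22.8, 21.4 and 18.0 at 60 DAF. It had 0.84, 0 and 0.32 FPKM at 90 DAF. The Group II log2 change was -4.69 and that of Group III -4.74 (SE 0.32 each). A lipase contig with a maximum in between, CL5476.Contig1_All, had 7.57, 3.67 and 4.76 FPKM at 30 DAF, 45.8, 36.4 and 21.9 at 60 DAF, then 0.15, 0.11 and 0 at 90 DAF. It was called in all 3 groups, with log2 changes of 2.59, -5.85 and -3.27 (SE 0.33 each). A value this close to 0 stands for very few fragments, and the 0.5 added before the logarithm limits the size of such changes.

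Other lipases peaked at 60 DAF and remained at 90 DAF. CL12466.Contig1_All had 31.4, 30.8 and 28.0 FPKM at 30 DAF, 100.2, 90.7 and 54.4 at 60 DAF, then 31.1, 31.8 and 43.3 at 90 DAF. It was called higher in Group I at 1.38 and lower in Group II at -1.16 (SE 0.24 each), whereas its log2 change in Group III was 0.22. Replicate 1 at 60 DAF was the highest library, and without it the Group II change was -0.99 and not called.

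Cluster CL4943 holds 5 contigs, of which 2 were members. CL4943.Contig3_All had 12.8, 12.4 and 10.9 FPKM at 30 DAF, 59.6, 38.0 and 45.5 at 60 DAF, then 20.2, 18.8 and 21.9 at 90 DAF. CL4943.Contig5_All had 9.53, 12.2 and 9.54 FPKM at 30 DAF, 46.0, 38.0 and 43.5 at 60 DAF, then 12.8, 16.3 and 21.4 at 90 DAF. In both members the 3 stages did not overlap, and 60 DAF was highest. CL4943.Contig4_All, which was not a member, had 5.05, 1.89 and 1.91 FPKM at 30 DAF, 17.15, 1.94 and 4.18 at 60 DAF, then 9.70, 4.61 and 6.59 at 90 DAF. Its means followed the same order, but its stages overlapped. The log2 change was 1.92 for CL4943.Contig3_All (SE 0.18) and 1.98 for CL4943.Contig5_All (SE 0.20) in Group I, and -1.19 and -1.34 in Group II. In Group III the log2 changes of 0.73 and 0.64 were below the limit.

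CL873.Contig3_All was also highest at 60 DAF, at a lower level and with its lowest mean at 90 DAF. It had means of 1.40, 5.83 and 0.92 FPKM at 30, 60 and 90 DAF and was called in Group I (1.83) and Group II (-2.16). It held only 47.8% of the FPKM of its cluster at 60 DAF and less at the other stages. The sum over the cluster changed by 0.93 and -0.60 on the log2 scale and was not called. Its Group I call also depended on 60 DAF replicate 2, without which the change was 1.73 and not called.

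The most abundant lipase at 90 DAF was CL13725.Contig1_All, with 16.0, 24.1 and 15.4 FPKM at 30 DAF, 52.6, 31.1 and 36.0 at 60 DAF, then 70.1, 80.1 and 71.4 at 90 DAF. The stages did not overlap and followed the order of development. It was called higher in Group III at 1.997 (SE 0.23) and in Group I at 1.08 (SE 0.23). The Group II change of 0.91 was not called, and was 0.29 under median-of-ratios scaling. The Group I call was lost without 30 DAF replicate 1 (0.996), 30 DAF replicate 3 (0.97) or 60 DAF replicate 1 (0.87). Without 60 DAF replicate 1, Group II was called at 1.13.

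Its partner contig CL13725.Contig2_All had 2.74, 3.92 and 4.67 FPKM at 30 DAF, 7.98, 15.1 and 5.29 at 60 DAF, then 19.9, 2.83 and 10.8 at 90 DAF. The 90 DAF libraries were spread over the range of both other stages, and no change was called. Without 90 DAF replicate 2, the Group III change was called at 1.85. RSEM divides the reads of similar contigs between them, and the sum of the pair was far more even, at 90.0, 83.0 and 82.2 FPKM at 90 DAF, against 18.7, 28.1 and 20.0 at 30 DAF. On that sum the log2 change was 1.13 in Group I and 1.93 in Group III, both called.

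**Figure D3:**
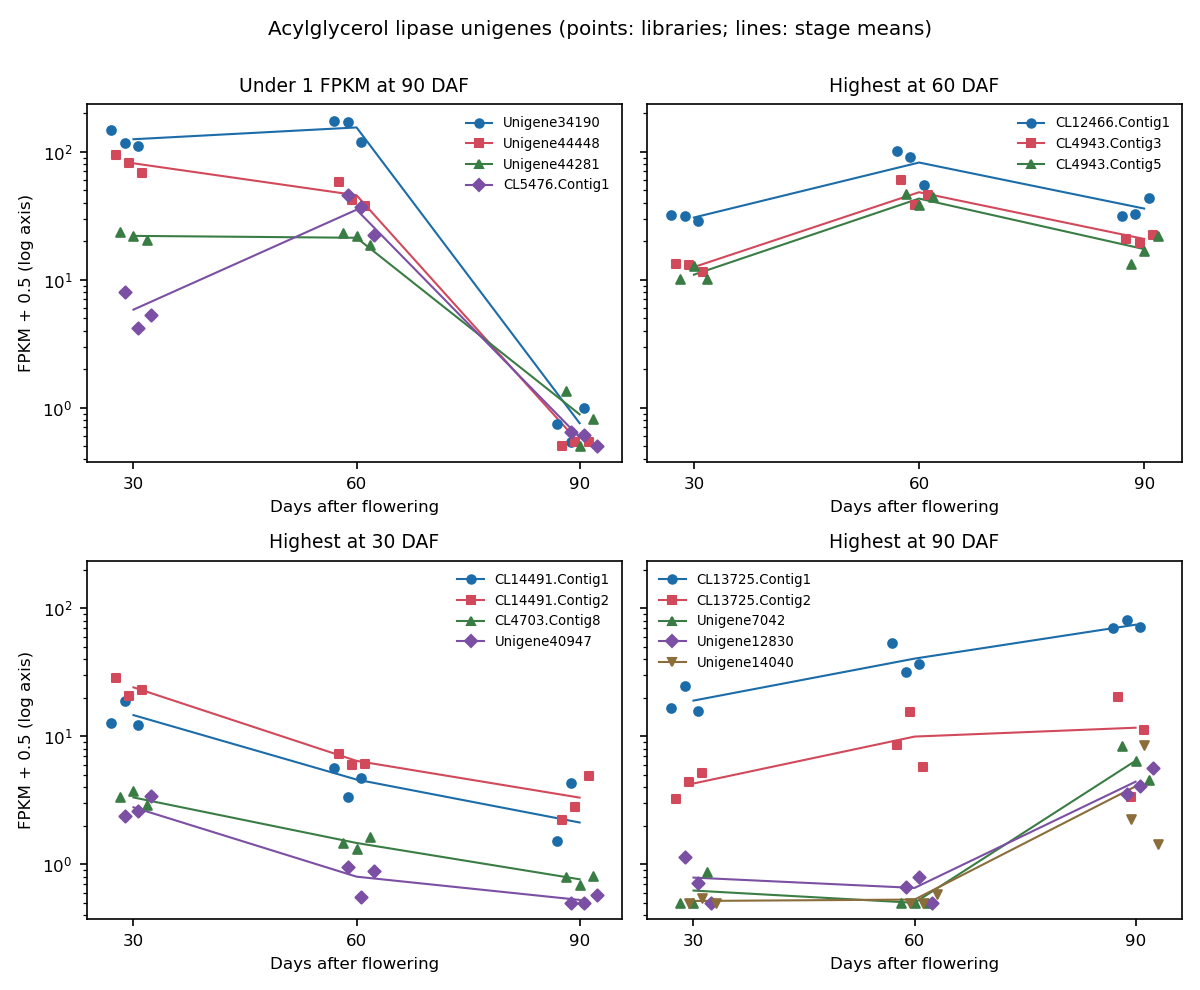
FPKM + 0.5 (log axis) of 16 acylglycerol lipase unigenes against days after flowering, in 4 panels by the stage of their highest or lowest mean (points are libraries, lines join stage means). The unigenes of the first panel are under 1 FPKM in every 90 DAF library, and those of the last panel are highest at 90 DAF.

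A further set of lipases was highest at 30 DAF. CL14491.Contig2_All had 28.1, 20.2 and 22.6 FPKM at 30 DAF, 6.74, 5.43 and 5.60 at 60 DAF, then 1.72, 2.31 and 4.42 at 90 DAF, in 3 ranges that did not overlap. It was called lower in all 3 groups, at -1.90, -1.03 and -2.93 (SE 0.29 each). The Group II call was close to the limit, and was lost without 60 DAF replicate 1 (-0.94), 90 DAF replicate 1 (-0.78) or 90 DAF replicate 2 (-0.95).

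CL14491.Contig1_All had 12.3, 18.3 and 11.8 FPKM at 30 DAF, 5.20, 2.83 and 4.24 at 60 DAF, then 1.02, 3.84 and 0 at 90 DAF. Its 90 DAF libraries reached into the range of 60 DAF, and it was called lower in Group III only, at -3.27 (SE 0.66). The Group I change of -1.68 was called without 90 DAF replicate 2 or 3 or without all of 90 DAF. Group II was called without 90 DAF replicate 2, at -2.36, and under median-of-ratios scaling, at -2.01. The sum of both contigs was 37.7 ± 3.05 FPKM at 30 DAF, 10.01 ± 1.85 at 60 DAF, then 4.44 ± 1.71 at 90 DAF, and was called lower in all 3 groups.

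The 5 member contigs of cluster CL4703 and Unigene40947_All showed the same order at low levels. The CL4703 contigs together had 5.81, 6.80 and 5.56 FPKM at 30 DAF, 2.46, 2.33 and 2.40 at 60 DAF, then 0.73, 0.19 and 0.54 at 90 DAF. The 3 of them that were tested were called lower in Group III, although CL4703.Contig5_All not under quantile normalization, with CL4703.Contig8_All the highest and at -2.12 (SE 0.22). Its Group I change of -1.18 was called, but was -0.87 and not called under median-of-ratios scaling. Unigene40947_All had 1.87, 2.10 and 2.89 FPKM at 30 DAF, 0.45, 0.06 and 0.39 at 60 DAF, then 0, 0 and 0.08 at 90 DAF, and was called lower in Group I (-1.82) and Group III (-2.39, SE 0.27 each). Unigene29979_All, with means of 3.21, 3.02 and 1.38 FPKM at 30, 60 and 90 DAF, was not called. Under median-of-ratios scaling it was called lower in Groups II and III.

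A set of 9 lipase unigenes was seen almost only at 90 DAF. Each averaged under 0.5 FPKM at 30 and at 60 DAF and was above 0 in all 3 libraries of 90 DAF. Their means at 90 DAF ran from 1.27 to 5.94 FPKM and single 90 DAF libraries from 0.26 to 7.97 FPKM, against at most 1.16 FPKM in any earlier library. Of the 9, 7 passed the filter. They were picked for being low at 30 and 60 DAF and passed mainly through their 90 DAF libraries, so that their calls as higher in Groups II and III follow from the choice and are no result. The Group II call of Unigene8932_All was lost under median-of-ratios scaling. Unigene6153_All and Unigene15608_All were listed at 0 in all 6 earlier libraries, where no fold can be given. In 6 of the 9, 90 DAF replicate 3 was the lowest of its stage.

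Unigene7042_All, the highest of these, was listed at 0, 0 and 0.37 FPKM at 30 DAF and at 0 in all libraries of 60 DAF, and had 7.87, 5.86 and 4.08 at 90 DAF. Its log2 change in Group III was 3.38 (SE 0.31). Unigene12830_All had 0.64, 0.22 and 0 FPKM at 30 DAF, 0.16, 0.30 and 0 at 60 DAF, then 3.05, 3.60 and 5.10 at 90 DAF. The log2 change reached 2.76 for Group II and 2.54 for Group III (SE 0.36 each). In both unigenes every 90 DAF library lay above all earlier ones.

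Unigene14040_All was less even, with 0, 0.05 and 0 FPKM at 30 DAF, 0, 0 and 0.09 at 60 DAF, then 1.76, 7.97 and 0.95 at 90 DAF. The log2 change reached 2.52 for Group II and 2.55 for Group III (SE 0.55 each), and most of its FPKM lay in 90 DAF replicate 2. Unigene13181_All had 2.95, 3.15 and 1.72 FPKM at 90 DAF, against 0.12, 0.12 and 0.22 at 60 DAF, and was called higher in Groups II and III at 2.22 (SE 0.27 each).

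In all, 9 of the 24 tested lipases were called in Group I (6 higher, 3 lower), 16 in Group II (7 higher, 9 lower) and 18 in Group III (8 higher, 10 lower). The median log2 change of the lipases was -0.85 in Group II and -0.05 in Group III, beside 0.36 and 0.06 over all tested unigenes. Without Unigene34190_All, Unigene44448_All and Unigene44281_All, the medians of the 21 remaining were -0.62 and 0.64.

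Diacylglycerol kinases phosphorylate diacylglycerol to phosphatidic acid. Of 6 tested, 4 were called lower in Group III, beside 16.5% of all tested unigenes. They had been picked as DEGs, so nothing is read from this count. Summed over the 7, the kinases stood at 107 ± 6.43 FPKM at 30 DAF, 75.2 ± 13.2 at 60 DAF, then 49.5 ± 7.01 at 90 DAF (SD, n = 3). Of 6 tested, 3 were called in Group II (1 higher, 2 lower), beside 27.6% of all tested unigenes.

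CL9036.Contig1_All, the kinase with the highest FPKM at 30 and 60 DAF, had 43.8, 44.2 and 38.3 FPKM at 30 DAF, 30.3, 26.7 and 23.5 at 60 DAF, then 17.4, 11.7 and 16.5 at 90 DAF. The stages did not overlap. It was called lower in Group III at -1.46, and its Group II change of -0.81 (SE 0.18 each) was called only under median-of-ratios scaling (-1.42) and quantile normalization (-1.19). CL9036.Contig3_All had 23.2, 25.4 and 20.3 FPKM at 30 DAF, 15.8, 13.3 and 10.4 at 60 DAF, then 5.12, 2.96 and 4.70 at 90 DAF. It was called lower in Group II at -1.53 and in Group III at -2.32 (SE 0.23 each). The sum over the cluster, which holds 1 contig outside the list, changed by -0.82 in Group II and was not called.

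Unigene742_All had 19.1, 21.8 and 21.1 FPKM at 30 DAF, 20.5, 17.2 and 13.2 at 60 DAF, then 3.83, 3.49 and 5.19 at 90 DAF. Its fall lay between 60 and 90 DAF, at -1.90 in Group II and -2.19 in Group III (SE 0.20 each). Unigene37255_All had 12.5, 12.2 and 13.9 FPKM at 30 DAF, 7.71, 7.17 and 6.77 at 60 DAF, then 3.34, 2.76 and 4.56 at 90 DAF. Its stages did not overlap, and it was called lower in Group III at -1.74 (SE 0.19). The Group II change of -0.95 was called without 90 DAF replicate 3 (-1.12) and under median-of-ratios scaling (-1.52).

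The remaining kinases had their highest mean at 90 DAF. Unigene37120_All had 2.26, 2.84 and 1.94 FPKM at 30 DAF, 1.62, 1.58 and 1.37 at 60 DAF, then 4.83, 5.55 and 4.95 at 90 DAF. It was called higher in Group II at 1.47 (SE 0.19), but not under median-of-ratios scaling (0.94), and its Group III change of 0.99 was called when 30 DAF replicate 2 (1.11), 90 DAF replicate 1 (1.02) or 90 DAF replicate 3 (1.01) was left out. CL4719.Contig1_All had 7.05, 6.29 and 4.35 FPKM at 30 DAF, 13.1, 7.98 and 7.50 at 60 DAF, then 5.70, 25.6 and 17.1 at 90 DAF. The 90 DAF libraries spread so widely that its log2 change of 1.17 in Group III (SE 0.49) was not called.

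At 90 DAF the other contig of that cluster, CL4719.Contig2_All, had 15.7, 1.34 and 4.79 FPKM and was high where CL4719.Contig1_All was low. The cluster summed to 21.4, 26.9 and 21.9 FPKM at 90 DAF, against 9.94, 12.6 and 9.41 at 30 DAF, and was called higher in Group III at 1.10. Without 90 DAF replicate 1, CL4719.Contig1_All itself was called higher in Group II (1.14) and Group III (1.77). CL6390.Contig2_All, which was not tested, had 1.16, 1.76 and 0.20 FPKM at 90 DAF and was listed at 0 at 60 DAF.

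Glycerol kinase, which phosphorylates the glycerol released by lipases, was represented by CL14885.Contig1_All. It had 12.3, 10.3 and 9.99 FPKM at 30 DAF, 19.9, 19.8 and 13.3 at 60 DAF, then 7.58, 6.15 and 9.24 at 90 DAF. The stages did not overlap, and 60 DAF was highest. It was called lower in Group II at -1.15 (SE 0.21). Its Group I change of 0.66 was called higher only under median-of-ratios scaling (1.06) and quantile normalization (1.03).

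The enzymes annotated as 2-acylglycerol O-acyltransferase add an acyl chain to monoacylglycerol. CL3462.Contig3_All had 6.46, 8.94 and 5.80 FPKM at 30 DAF, 8.43, 6.21 and 8.35 at 60 DAF, then 4.27, 3.28 and 3.65 at 90 DAF. Its 90 DAF libraries lay below all others, but the Group II change of -0.94 (SE 0.21) was below the limit. It was called at -1.51 under median-of-ratios scaling, and also without 60 DAF replicate 2 (-1.08) or 90 DAF replicate 1 (-1.03).

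CL5052.Contig4_All had 0.92, 5.48 and 2.14 FPKM at 30 DAF, 6.43, 4.56 and 3.20 at 60 DAF, then 9.83, 13.4 and 11.8 at 90 DAF, the last apart from both other stages. It was called higher in Group III at 2.10 (SE 0.47), whereas the Group II change of 1.26 was not called. With the same value it was called when 30 DAF replicate 1 or 2, or all of 30 DAF, was left out of the fit. This contig held 6.99% of the FPKM of its cluster at 30 DAF and 16.8% at 90 DAF. The cluster sum of 69.2 ± 6.85 FPKM at 90 DAF, against 38.2 ± 5.64 at 30 DAF, changed by 0.85 on the log2 scale and was not called.

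**Figure D4:**
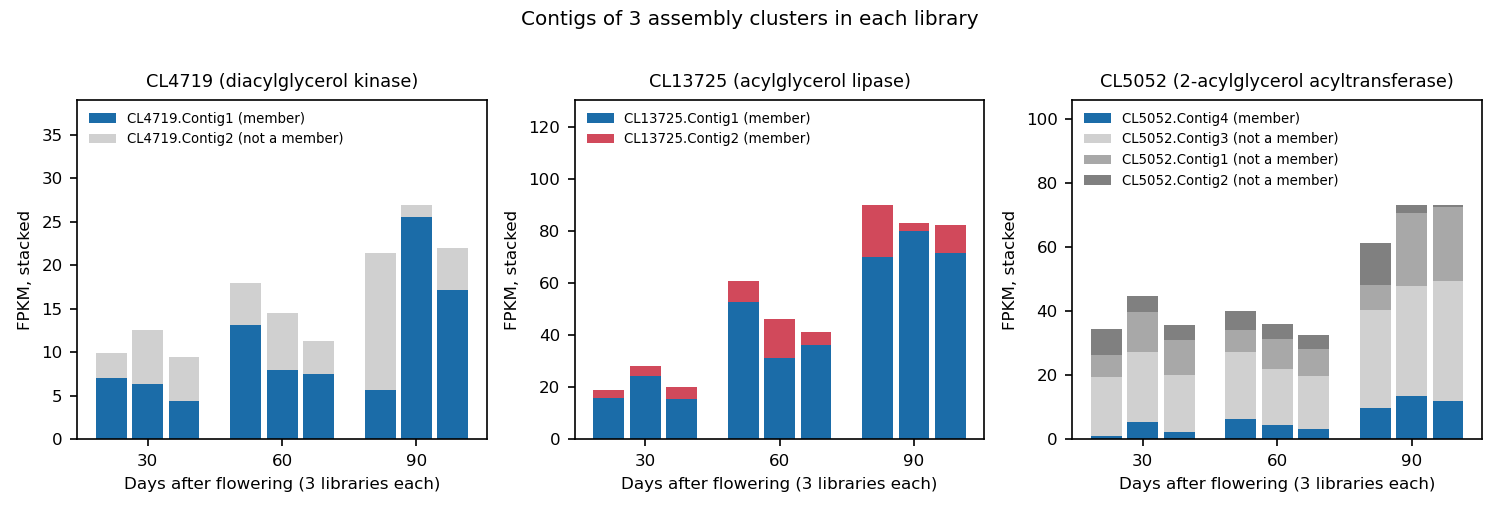
FPKM of the contigs of 3 assembly clusters, stacked, in the 9 libraries by days after flowering (coloured parts are members, grey parts are not). At 90 DAF the contigs of CL4719 and CL13725 trade places between libraries while their sums stay at 21.4 to 26.9 FPKM and 82.2 to 90.0 FPKM, and CL5052.Contig4_All is a small part of its cluster.

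The diacylglycerol diphosphate phosphatases, which release diacylglycerol from phosphorylated precursors, had a sum of 3.34 ± 0.67 FPKM at 30 DAF, 3.36 ± 0.21 at 60 DAF, then 12.9 ± 1.43 at 90 DAF. CL289.Contig1_All had 1.47, 2.36 and 2.57 FPKM at 30 DAF, 1.24, 2.85 and 1.75 at 60 DAF, then 10.7, 5.47 and 5.15 at 90 DAF. It was called higher in Group II (1.62) and Group III (1.48, SE 0.35 each). CL289.Contig2_All, of the same cluster, was called higher in the same groups with 1.70, 6.33 and 9.36 FPKM at 90 DAF, the Group II call being lost under median-of-ratios scaling. The other phosphatases, Unigene56159_All and Unigene5615_All, were listed at 0 in every 90 DAF library and averaged under 1 FPKM before. Unigene56159_All was called lower in Group III at -1.34 (SE 0.23), and Unigene5615_All was not tested.

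Phosphatidylinositol synthase and phosphatidylglycerophosphate synthase both use CDP-diacylglycerol. Unigene591_All, the main phosphatidylinositol synthase, had 12.8, 18.3 and 15.3 FPKM at 30 DAF, 9.61, 8.11 and 6.59 at 60 DAF, then 5.50, 6.77 and 4.95 at 90 DAF. It was called lower in Group III at -1.35 (SE 0.20), and its Group I change of -0.89 was called only without 30 DAF replicate 1 or 60 DAF replicate 1, at -1.02 each. Unigene7079_All of the same enzyme went the other way, with 1.88, 2.21 and 3.80 FPKM at 90 DAF, against 0.22, 0.38 and 0.65 at 60 DAF, and was called higher in Group II (1.75) and Group III (1.63, SE 0.30 each). CL2791.Contig1_All was not tested and averaged 0.63 FPKM at 90 DAF.

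Unigene33843_All, the phosphatidylglycerophosphate synthase on the way to the phospholipid of photosynthetic membranes, had 10.2, 11.6 and 9.87 FPKM at 30 DAF, 5.87, 6.24 and 4.86 at 60 DAF, then 4.06, 3.94 and 5.84 at 90 DAF. The libraries of 60 and 90 DAF overlapped below those of 30 DAF. It was called lower in Group III at -1.13 (SE 0.19), and the Group I change was -0.85.

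**Figure D5:**
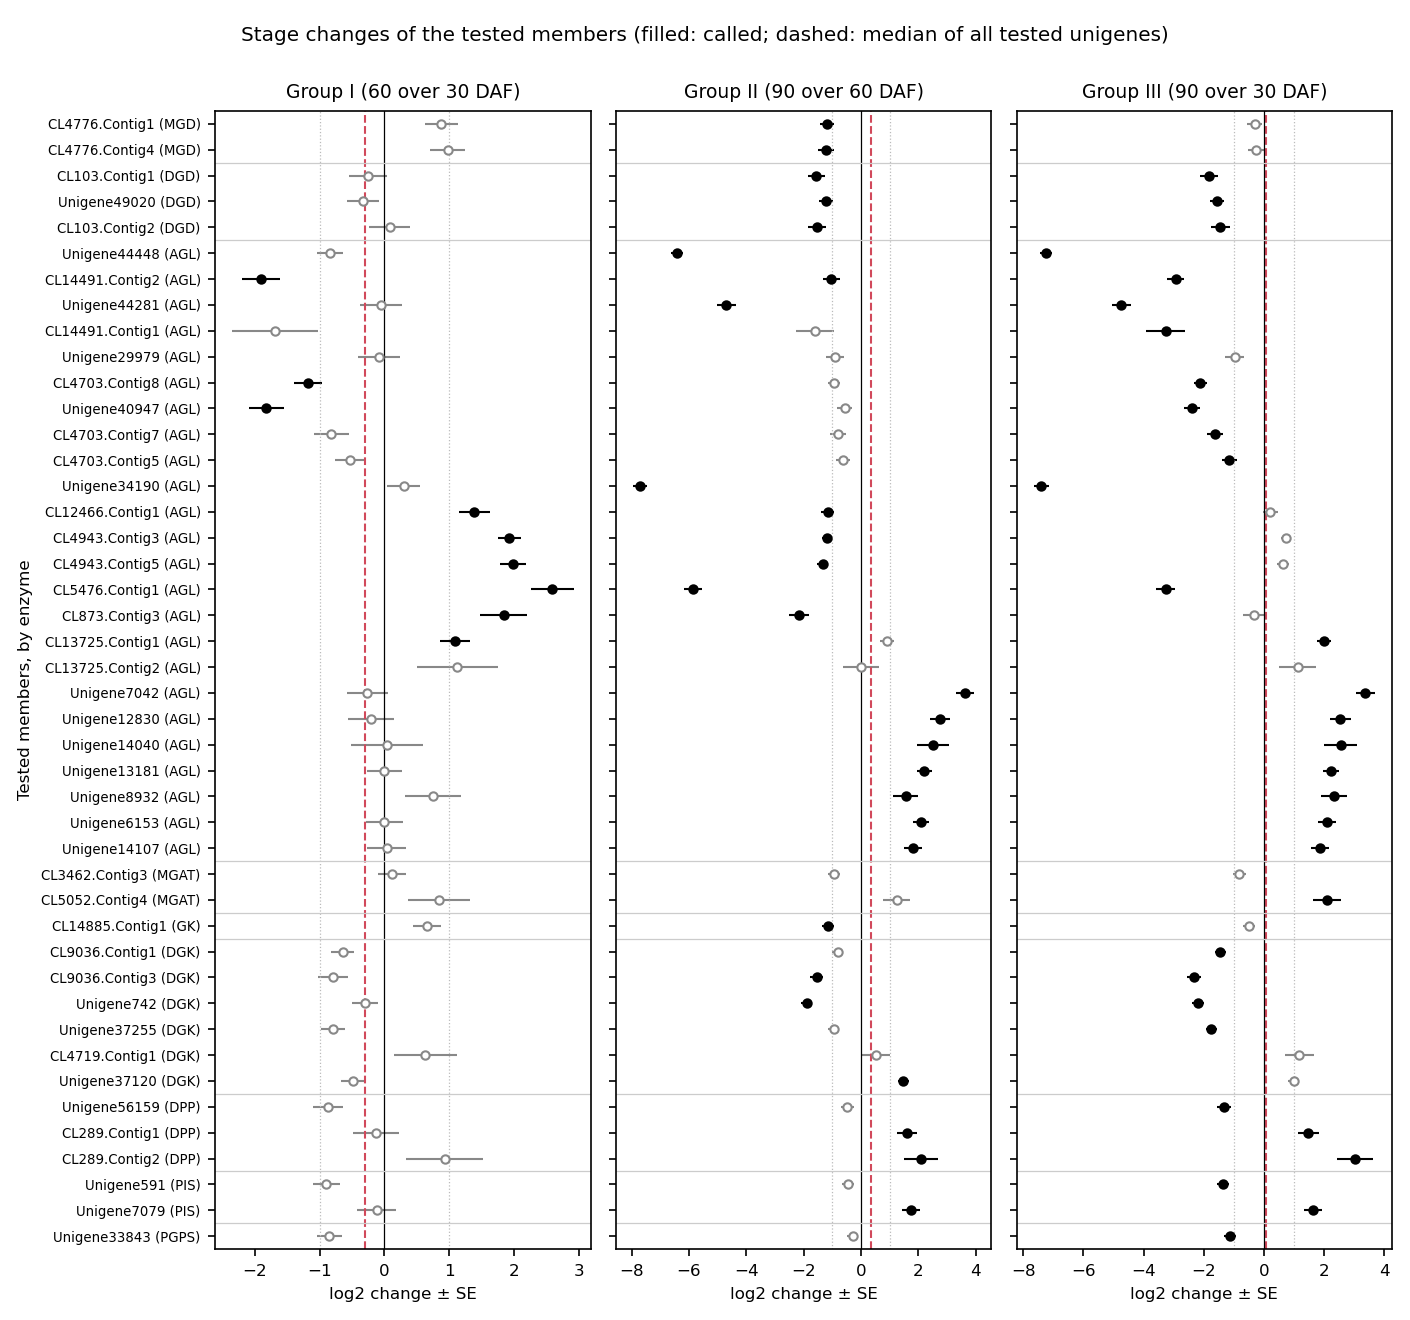
Log2 change ± SE of the 44 tested members (lines, grouped by enzyme) in Groups I, II and III, on log2(FPKM + 0.5). Filled points were called, and the dashed line is the median of all tested unigenes (-0.31, 0.36 and 0.06). In Group I the 9 called members are lipases, and in Group II the 5 galactolipid synthases are all filled and left of the dashed line. A change of a unigene listed at 0 at 1 stage depends on the 0.5 added.

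The libraries of the stages compared did not overlap in 25, 36 and 39 tested members for Groups I, II and III, beside 35.7%, 47.4% and 48.1% of all tested unigenes. The median log2 change of the members was -0.07, -0.85 and -0.66 in Groups I, II and III, beside -0.31, 0.36 and 0.06 over all tested unigenes. Under median-of-ratios scaling it was 0.11, -1.31 and -0.84, and under quantile normalization 0.14, -1.12 and -0.63, so that the sign in Group I turned under both. The median SD of the members within a stage, on the log2 scale, was 0.22 at 30 DAF, 0.32 at 60 DAF, then 0.32 at 90 DAF, against 0.29, 0.31 and 0.40 over all tested unigenes. Of the 51 members, 31 stayed under 10 FPKM on average at every stage.

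The members fell into 28 contigs of 17 assembly clusters and 23 single unigenes. Their clusters held 28 further contigs that were not members, of which 17 were tested. Of these 17, 2 were called, both lower in Group II, beside 9.41% of all tested unigenes. Contigs of 1 cluster share sequence, so they are not separate measurements.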

How the data were processed

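The authors built unigenes from the clean reads by assembly, aligned each library back to them with Bowtie2, quantified them by RSEM and deposited FPKM, 1 value for every unigene in every library, in which length and library size had been divided out. Their versions were not given in the sources used here. Column names gave the stage of each library, and 9 lines with no unigene were left out. Members were matched by unigene ID to the study's lists, whose values were not used, and the members and lists were chosen with earlier results of these data known.

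A unigene was tested where 3 or more libraries reached 0.5 FPKM (55192 unigenes). A linear model of log2(FPKM + 0.5) with a term per stage was fitted to all 9 libraries with limma 3.58.1 in R 4.3.3, using a variance trend, and p-values were adjusted over all tested unigenes by the Benjamini-Hochberg method. Called unigenes had a fold change of at least 2 and an adjusted p of at most 0.05. The adjusted p of single members is not printed, because the study had selected them on these contrasts. The test was checked on simulated data for Group III. It recovered 36% of log2 changes of 1.5 and 77% of changes of 3, and called 3 unchanged unigenes. A member that was not called may therefore still have changed. Tables and figures were made with Python 3.11.15, pandas 2.3.3, numpy 2.4.6 and matplotlib 3.10.9.

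Values in every library were given for all galactolipid synthases, glycerol kinase and 2-acylglycerol O-acyltransferases, for other members averaging at least 10 FPKM at a stage, and for the 3 highest lipases at 90 DAF among those under 0.5 FPKM at 30 and 60 DAF. Further members named by ID were chosen after their values were seen. The study found its DEGs with DESeq2 on read counts, which were not used here. Depth limits values near 0, where an FPKM of 0 means that no read was assigned. Alternatives were other added values, filters and limits, median-of-ratios scaling, quantile normalization, only the stages compared, a replicate block, no variance trend, robust moderation, sums over the contigs of a cluster, and each library left out in turn.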

Additional observations from a re-analysis of the deposited data

How the results depend on the processing

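Of the 100 log2 changes followed for named members, 10 turned sign under at least 1 alternative, none of which had been called, 5 lost their call when 1 library was left out and 14 gained one. The number of members called ran from 8 to 11 in Group I, 26 to 29 in Group II and 32 to 34 in Group III when each library was left out. Over all unigenes, Group I had 2492 called at an adjusted p of at most 0.01, against 4443 at 0.05. With a limit of 0.1 in place of 0.5 FPKM, 8 members were under it at 30 DAF, against 15, and 8 at 60 DAF, against 18. Under quantile normalization, which covered only the 44 tested members, 13 had their highest mean at 30 DAF, against 20 of all 51.

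Median-of-ratios scaling gave sums of 2.10 FPKM for MGDG synthase at 90 DAF, 16.0 and 18.5 for DGDG synthase at 30 and 60 DAF, which turned their order, 606 and 150.05 for the lipases at 60 and 90 DAF, and 97.8, 91.4 and 39.1 for the diacylglycerol kinases at 30, 60 and 90 DAF. Replicate numbers did not pair the libraries, since the deviations of same-numbered libraries from their stage means correlated at -0.16 to 0.128. With the replicate number as a block, 8, 28 and 32 members were called in Groups I, II and III, and 3502, 14497 and 16024 of all unigenes, and CL13725.Contig1_All was no longer called in Group I. Unigenes under 1 FPKM rest on few reads, and 7 members were too low to be tested.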
